A study of Mus musculus with 12 samples.

Results

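The mouse mitochondrial genome carries 13 messenger RNA genes, 2 ribosomal RNA genes, and 22 transfer RNA genes in the GENCODE vM21 annotation of GRCm38. Genes were taken by a name starting with mt-, which gave 15 of the 38127 genes in the counts: all 13 messenger RNA genes, both ribosomal RNA genes, and 0 transfer RNA genes. The 22 transfer RNA genes were not analysed here. Each of the 15 is a single stretch of chrM without introns. Mitochondrial DNA is read from both strands as long transcripts that are cut into single RNAs, mostly at the transfer RNAs that lie between the other genes. The messenger RNAs encode core subunits of the respiratory chain and of ATP synthase, and the ribosomal RNAs form the core of the ribosome that translates them inside the organelle. Erythroid precursors depend on mitochondria, where heme synthesis begins and ends, and lose them as they become erythrocytes.

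The 12 libraries came from sorted cells of C57BL/6 embryonic mouse liver, 3 for each of 4 populations, with no allele or agent in any of them. The E14.5 populations were P2 (Ter119-CD45-CD54-CD31-Kit+CD24+), CD31+ (Ter119-CD45-CD54+CD31+), and CD54+CD31- (Ter119-CD45-CD54+CD31-), and the last sort was repeated at E18.5. The study counts each library of a population as a separate litter and also calls the E14.5 CD54+CD31- cells CD324+. Ribosomal RNA was removed by enzyme (Zap R) before sequencing, so the levels of mitochondrial ribosomal RNA are those that remained after a step whose yield in each library is not known.

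Total counts ranged from 40714017 to 64368883 per library. All 10 erythroid markers were higher in every P2 library than in any library of the other populations, and all 10 endothelial markers were higher in CD31+ cells. The 10 hepatoblast markers summed to between 72918 and 84404 CPM (read counts relative to library size, after edgeR's TMM scaling between libraries) in the E14.5 CD54+CD31- libraries. Of these markers, 8 were higher in each of those libraries than in any other library. The exceptions were *Fgb*, with 3111 to 3524 CPM against up to 5386 at E18.5, and *Trf*, with at most 0.201 CPM in any library. The E18.5 libraries went partly against their label of liver: all 10 lung epithelium markers were higher in each of them than in any E14.5 library, with sums of 9689 to 21543 CPM against at most 249.8, all 10 mesenchymal markers were higher as well, and hepatoblast markers summed to 3702 CPM in replicate 1 and to 39091 and 50939 in replicates 2 and 3. Because these are bulk libraries, fewer cells of a type and less RNA per cell cannot be told apart.

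The 13 messenger RNA genes had very unequal counts. *mt-Co2* and *mt-Co3*, which encode subunits of cytochrome c oxidase, and *mt-Atp6* and *mt-Atp8*, which encode subunits of ATP synthase, had 0 counts in all 12 libraries, which, by counting error alone, still allows 3 counts in a library, or 0.0466 to 0.0737 CPM of its unscaled total. *mt-Nd4l* had 0 to 9 counts and *mt-Nd3*, like it a complex I subunit gene, had 33 to 112. The other 7 had between 5841 (*mt-Nd6*) and 208074 (*mt-Co1*) counts in a library. *mt-Co2*, *mt-Atp8*, *mt-Atp6*, *mt-Co3*, *mt-Nd3*, and *mt-Nd4l* are neighbours on chrM, and the low values coincide with a nuclear copy of that stretch.

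The annotation places 7 pseudogenes at chr1:24611535-24616197 (GRCm38, minus strand) that copy the stretch from *mt-Co1* to *mt-Nd4* in the same order. Gm28661 matches *mt-Co2* over 681 bases, Gm10925 matches *mt-Atp6* over 678, Gm28437 matches *mt-Co3* over 783, and Gm10222 matches *mt-Nd4l* over 294, each with 0 mismatches. Gm28438 matches *mt-Nd3* over 345 bases with 1 mismatch, Gm29216 matches the end of *mt-Co1* from base 1063 on with 1 mismatch, and Gm28439 matches the first 876 bases of *mt-Nd4* with 0. The copies themselves had at most 10 counts in any library. A read from inside this stretch therefore has a second place of origin in the genome, and how reads that align to several places were counted is not given in the sources used here.

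The start of *mt-Nd3* (chrM:9459-9806) and of its copy is shown because a single base, in capitals, is all that separates them near this end. The difference is T3C, counted from base 1 of *mt-Nd3*.
mt-Nd3: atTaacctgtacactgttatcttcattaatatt
Gm28438: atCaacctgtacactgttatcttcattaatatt

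The next pair shows where the copy of *mt-Nd4* (chrM:10167-11544) stops. Capitals mark bases of *mt-Nd4* beyond base 876, the last base of the copy.
mt-Nd4: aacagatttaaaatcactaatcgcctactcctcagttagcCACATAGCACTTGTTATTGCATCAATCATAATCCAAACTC
Gm28439: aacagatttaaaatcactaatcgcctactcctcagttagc

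The last pair shows where the copy of *mt-Co1* (chrM:5328-6872) begins. The capital marks A1066T, counted from base 1 of *mt-Co1*, and all later bases of the copy match. The match starts at base 1063 of *mt-Co1*, and the bases printed for Gm29216 before that point lie outside it.
mt-Co1: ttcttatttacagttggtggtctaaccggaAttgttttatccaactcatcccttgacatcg
Gm29216: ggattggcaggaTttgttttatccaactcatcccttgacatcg

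The share of each gene that is found in no other annotated transcript was computed over windows of 50 bases. It was 0% for *mt-Co2*, 0.14% for *mt-Co3*, 0.47% for *mt-Atp6*, 1.21% for *mt-Nd4l*, and 2.01% for *mt-Nd3*, which are the genes at 0 or few counts. It was 37.8% for *mt-Nd4*, 48.9% for *mt-Co1*, 91.8% for *mt-Nd2*, 92.4% for *mt-Nd5*, 99.0% for *mt-Rnr2*, and 100% for *mt-Rnr1*, *mt-Nd1*, *mt-Nd6*, and *mt-Cytb*. *mt-Atp8* is the exception, with 0 counts and no annotated copy of its 50-base windows. It lies between *mt-Co2* and *mt-Atp6*, and the copies of those genes on chromosome 1 leave an unannotated gap of 233 bases against 230 on chrM, where the copy of *mt-Co2* is 3 bases shorter than the gene. A further 13 annotated nuclear copies, elsewhere in the genome and mostly less alike, had at most 36 counts in a library.

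**Figure D1:**
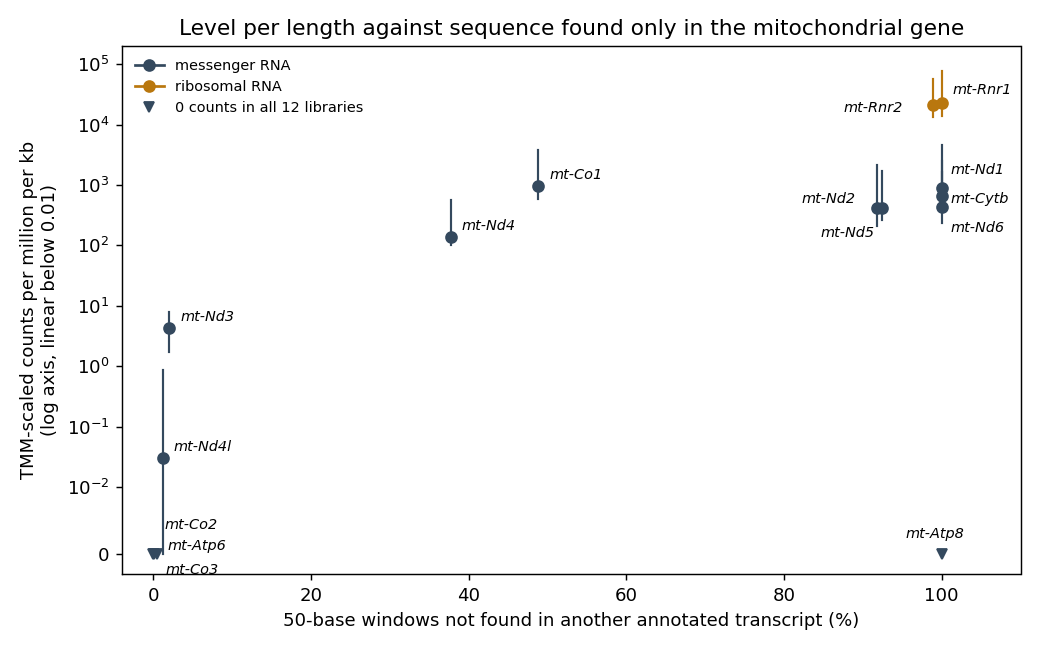
Level per length of the 15 genes (vertical axis, TMM-scaled CPM per kilobase, log axis that is linear below 0.01) against the percentage of their 50-base windows found in no other annotated transcript (horizontal axis). Points are medians over the 12 libraries and lines run from the lowest to the highest library. The genes near 0% on the horizontal axis, *mt-Co2*, *mt-Atp6*, *mt-Co3*, *mt-Nd4l*, and *mt-Nd3*, lie far below the others, and *mt-Atp8*, at 100%, has 0 counts.

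Per kilobase of gene, the ribosomal RNAs were far above the messenger RNAs. In P2 cells *mt-Rnr1*, the small subunit ribosomal RNA, had 23566 ± 5042 CPM per kb (SD, n = 3) and *mt-Rnr2*, the large subunit ribosomal RNA, 19827 ± 3697. *mt-Rnr1* was the higher of the pair in each of the 3 P2 libraries, which was not tested. *mt-Nd1* (complex I) followed with 696 ± 126, *mt-Co1* (cytochrome c oxidase) with 692 ± 125, and *mt-Cytb* (cytochrome b of complex III) with 524 ± 88.6. *mt-Nd5* with 301 ± 50.8, *mt-Nd2* with 285 ± 47.4, and *mt-Nd6* with 279.7 ± 39.9 CPM per kb, all complex I genes, lay within their spread of each other. *mt-Nd4*, another complex I gene, had 112 ± 12.7 and *mt-Nd3* 4.56 ± 0.413.

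Part of this order follows the windows without a copy. Divided by 1000 such windows in place of length, P2 levels were 265 ± 24.0 (SD, n = 3) for *mt-Nd3*, 306 ± 34.9 for *mt-Nd4*, 309 ± 44.1 for *mt-Nd6*, 325 ± 54.2 for *mt-Nd2*, and 334 ± 56.5 for *mt-Nd5*. In P2 cells these 5 complex I genes lay closer together on this scale than per kilobase, although *mt-Nd3* has only 6 such windows. This also held in the other populations, where *mt-Nd3* and *mt-Nd6* had 3.36 and 668 CPM per kb at E18.5 and 3.07 and 468 in CD31+ cells. Per 1000 windows, however, *mt-Nd3* lay further below the rest there than in P2 cells. At E18.5 it had 195 ± 44.8 against 525 ± 148 for *mt-Nd4*, 705 ± 224 for *mt-Nd5*, and 738 ± 269 for *mt-Nd6*. In CD31+ cells it had 178 ± 89.9 against 401 ± 131 for *mt-Nd4* and 517 ± 134 for *mt-Nd6*. *mt-Nd4l*, also a complex I gene, has 3 such windows and had 2.31 ± 4.01 in P2 cells. *mt-Cytb* had 547 ± 92.6, *mt-Nd1* 733 ± 133, and *mt-Co1* 1462 ± 265. The scale assumes that only reads without a second annotated origin were counted, which was not tested.

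*mt-Nd6* is the only messenger RNA of the light strand and shares its last 14 bases with the end of *mt-Nd5* on the other strand. The counts did not appear to use strand: of 177 genes whose exons lie wholly under exons of the other strand, 166 (93.8%) had 0 counts in all 12 libraries, against 39.5% of 30707 genes with no overlap. Counts of *mt-Nd6* therefore cannot be told apart from heavy-strand RNA that is antisense to it.

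Within the E14.5 CD54+CD31- population, replicate 1 stood apart. Its level of the 2 ribosomal RNAs and the 7 messenger RNAs with over 1000 counts was 2.45 times (*mt-Rnr2*) to 4.52 times (*mt-Nd1*) the mean of replicates 2 and 3. Messenger RNA summed to 20052 CPM in replicate 1 and to 5021 and 5822 CPM in replicates 2 and 3. Hepatoblast markers summed to 72918, 83299, and 84404 CPM in replicates 1 to 3. Replicate 1 also had the lowest sums of the 3 for erythroid (537 CPM), endothelial (42.3), macrophage (173), and mesenchymal (124) markers, and lung epithelium markers were at 155 to 169 in all 3. The part of these differences in the mitochondrial levels was not tested. Counts of calls against this population are given with and without replicate 1.

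**Figure D2:**
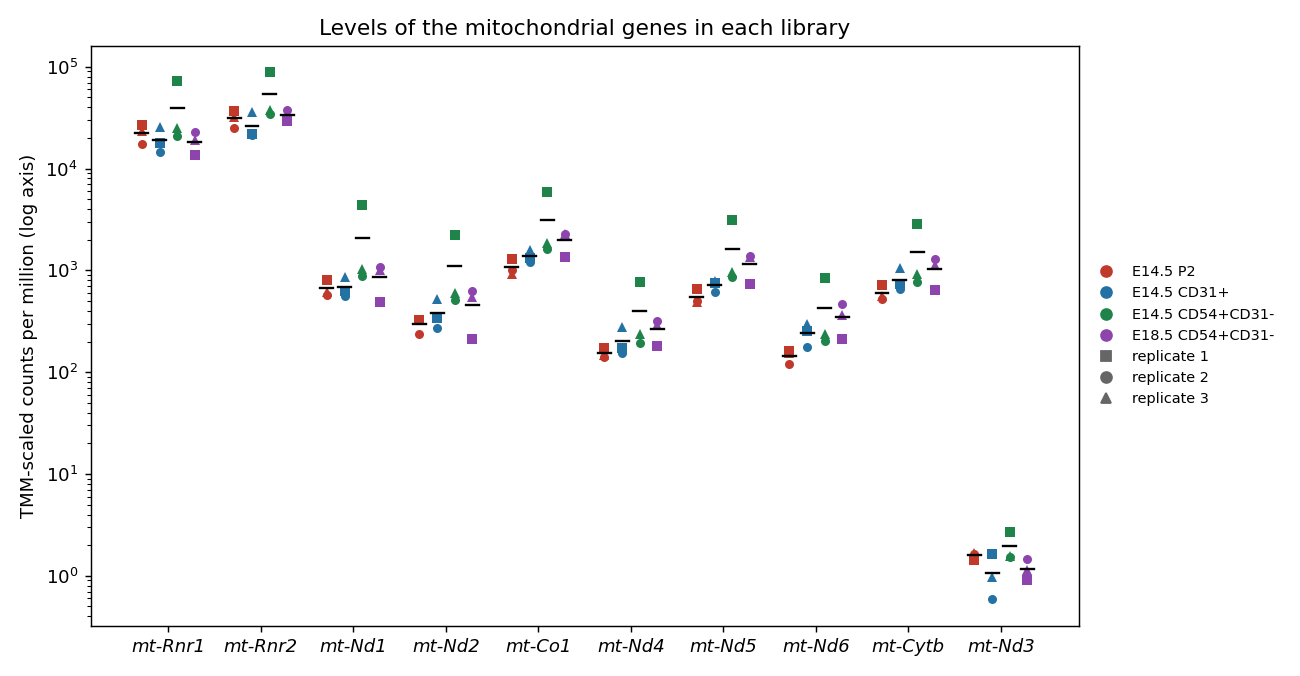
Levels of the 10 tested mitochondrial genes in each of the 12 libraries (TMM-scaled CPM, log axis), with populations by color and replicates by marker. Black lines are means of 3 libraries. Replicate 1 of E14.5 CD54+CD31- cells (green square) is the highest library for every gene, and *mt-Nd3* is the lowest gene in every library.

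As a share of all counts, mitochondrial messenger RNA made up 0.346% ± 0.053 (SD, n = 3) in P2 cells, 0.484% ± 0.107 in CD31+ cells, 0.788% ± 0.620 in E14.5 CD54+CD31- cells, and 0.715% ± 0.222 in E18.5 CD54+CD31- cells. Nearly all of these messenger counts came from 7 of the 13 genes. Long stretches of *mt-Co1* and *mt-Nd4*, which are among the 7, have nuclear copies. The 3 P2 libraries held 0.406%, 0.309%, and 0.323%. They overlapped with the CD31+ libraries (0.462%, 0.389%, and 0.600%) and with the E14.5 CD54+CD31- libraries (1.5%, 0.392%, and 0.468%), and lay below the E18.5 libraries (0.466%, 0.892%, and 0.788%). Ribosomal RNA made up 5.36% ± 1.05 in P2 cells, 5.0% ± 1.62 in CD31+ cells, 7.14% ± 4.27 in E14.5 CD54+CD31- cells, and 6.10% ± 1.07 in E18.5 cells, and the 4 populations overlapped. Without replicate 1, the E14.5 CD54+CD31- means were 0.430% for messenger RNA and 4.68% for ribosomal RNA. *Cdk8*, *Zc3h7a*, and *Il1rapl1* together took 10.8% to 23.1% of the counts of a library and so bear on these shares. The nuclear genes above 1% of counts in a library were these and the marker genes *Alb*, *Afp*, and *Sftpc*. Without all of them in the total, P2 libraries held at most 0.498% and E14.5 CD54+CD31- libraries at least 0.545%, and these populations no longer overlapped. The removal of *Alb* and *Afp*, which are hepatoblast markers, itself raises the shares of the CD54+CD31- libraries.

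The ratio between the classes does not depend on the rest of the library. P2 libraries held 15.4, 13.6, and 17.4 ribosomal counts for each messenger count, a mean of 15.5 ± 1.86 (SD, n = 3). CD31+ libraries held 9.41, 9.79, and 11.4, with a mean of 10.2 ± 1.07. E14.5 CD54+CD31- libraries held 8.02, 11.1, and 10.7, with a mean of 9.94 ± 1.67, and E18.5 CD54+CD31- libraries held 11.1, 8.14, and 7.46, with a mean of 8.90 ± 1.93. The P2 libraries lay above all 9 others, and the other 3 populations overlapped. The yield of rRNA removal in each library could move this ratio and was not tested. The messenger counts came nearly all from 7 of the 13 genes, so this is not the ratio to all mitochondrial messenger RNA.

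Between the 2 ribosomal RNAs, counts of *mt-Rnr2* over *mt-Rnr1* were 2.17, 1.66, and 1.72 in the E18.5 libraries, a mean of 1.85 ± 0.278 (SD, n = 3). The means were 1.4 ± 0.050 in P2 cells, 1.37 ± 0.131 in CD31+ cells, and 1.46 ± 0.219 in E14.5 CD54+CD31- cells, whose highest library held 1.64. The E18.5 libraries thus lay above the others, replicate 2 by a small margin, and replicate 1, the library with the highest ratio, is also the library with the highest lung and lowest hepatoblast marker sum of its population. The part of those cells in the ratio was not tested.

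**Figure D3:**
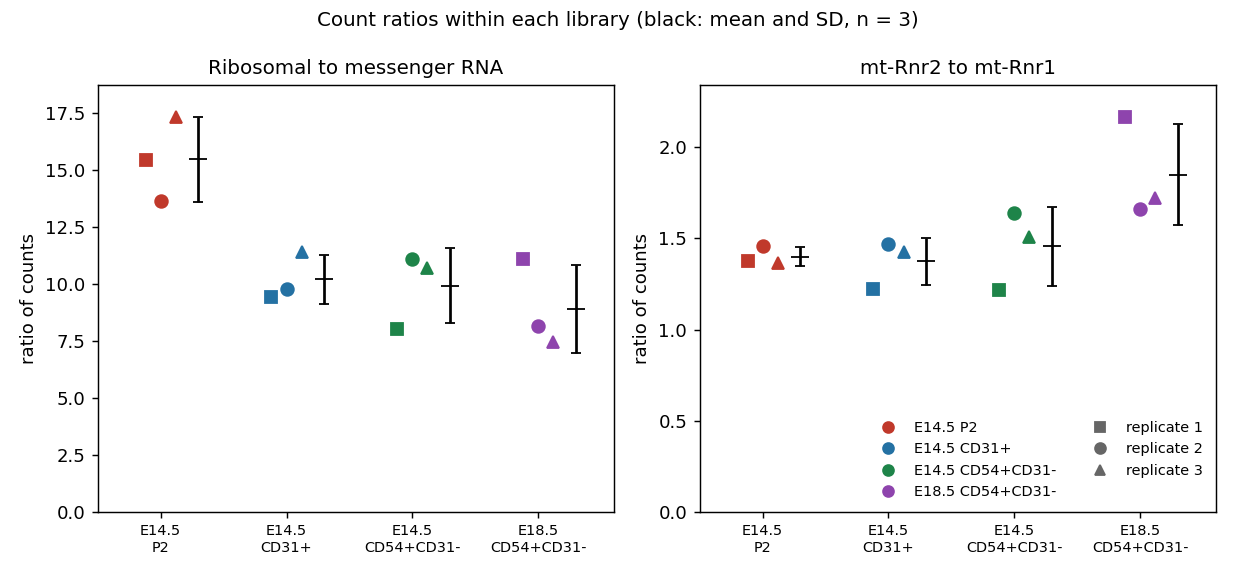
Counts of both ribosomal RNAs over counts of all messenger RNAs (left) and of *mt-Rnr2* over *mt-Rnr1* (right) in each library, with means and SD of 3 libraries in black. P2 libraries lie between 13.6 and 17.4 on the left, above every other library, and E18.5 libraries lie between 1.66 and 2.17 on the right.

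P2 cells were compared with E14.5 CD54+CD31- cells, and 10 of the 15 genes passed the low count filter. 7 messenger RNAs were lower in P2 cells and 0 genes were higher, where 36.1% of all 15461 genes tested were lower and 33.8% higher (70% in either direction). *mt-Nd2* had the largest difference, at 326, 239, and 322 CPM in P2 cells against 2241, 511, and 593 in E14.5 CD54+CD31- cells. It fell by 1.94 on the log2 scale (SE 0.52, adjusted p = 0.00649 by edgeR's quasi-likelihood test). All 3 P2 libraries were below all 3 libraries of the other population.

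*mt-Co1* had 1286, 1006, and 914 CPM in P2 cells against 5887, 1605, and 1841, and fell by 1.57 on the log2 scale (SE 0.43, adjusted p = 0.00763). *mt-Nd5* had 655, 503, and 487 CPM against 3092, 855, and 955, and fell by 1.60 (SE 0.43, adjusted p = 0.00660). Neither gene overlapped between the populations. *mt-Nd1*, *mt-Nd4*, *mt-Nd6*, and *mt-Cytb* fell by 1.67, 1.4, 1.58, and 1.37 on the log2 scale, with adjusted p from 0.0130 to 0.0188. *mt-Nd1* had 802, 574, and 620.1 CPM against 4342, 891, and 1029, again without overlap.

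The ribosomal RNAs did not pass the test in this comparison with all libraries and TMM scaling. Both were called lower with the authors' factors and without replicate 2 of the CD54+CD31- cells, and *mt-Rnr2* alone was called lower without the low count filter and without replicate 3 of those cells. *mt-Rnr1* had 26757, 17276.5, and 23484 CPM in P2 cells against 72634, 21062, and 24812 (log2 -0.84, SE 0.43, adjusted p = 0.106). *mt-Rnr2* had 36821, 25190.5, and 32087.5 against 88254, 34589.6, and 37477 (log2 -0.79, SE 0.36, adjusted p = 0.0700). Both overlapped between the populations. *mt-Nd3*, whose counts come from few bases, had a log2 value of -0.31 (SE 0.39, adjusted p = 0.494).

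Without replicate 1 of the CD54+CD31- cells the differences of P2 cells were smaller, and 5 of the 7 calls remained. The log2 values were then -0.90 for *mt-Nd2* (SE 0.25, adjusted p = 0.0121), -0.72 for *mt-Nd5* (adjusted p = 0.00315), -0.69 for *mt-Co1* (adjusted p = 0.00528), -0.59 for *mt-Nd6* (adjusted p = 0.0360), and -0.53 for *mt-Nd1* (adjusted p = 0.0487). *mt-Nd4* and *mt-Cytb* had -0.50 and -0.49 and no longer passed (adjusted p = 0.0899 and 0.0702). The ribosomal RNAs were at -0.02 (*mt-Rnr1*) and -0.20 (*mt-Rnr2*). The lower messenger RNA level of P2 cells was thus present with and without this library, at different sizes, and the ribosomal RNAs did not show it without the library.

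**Figure D4:**
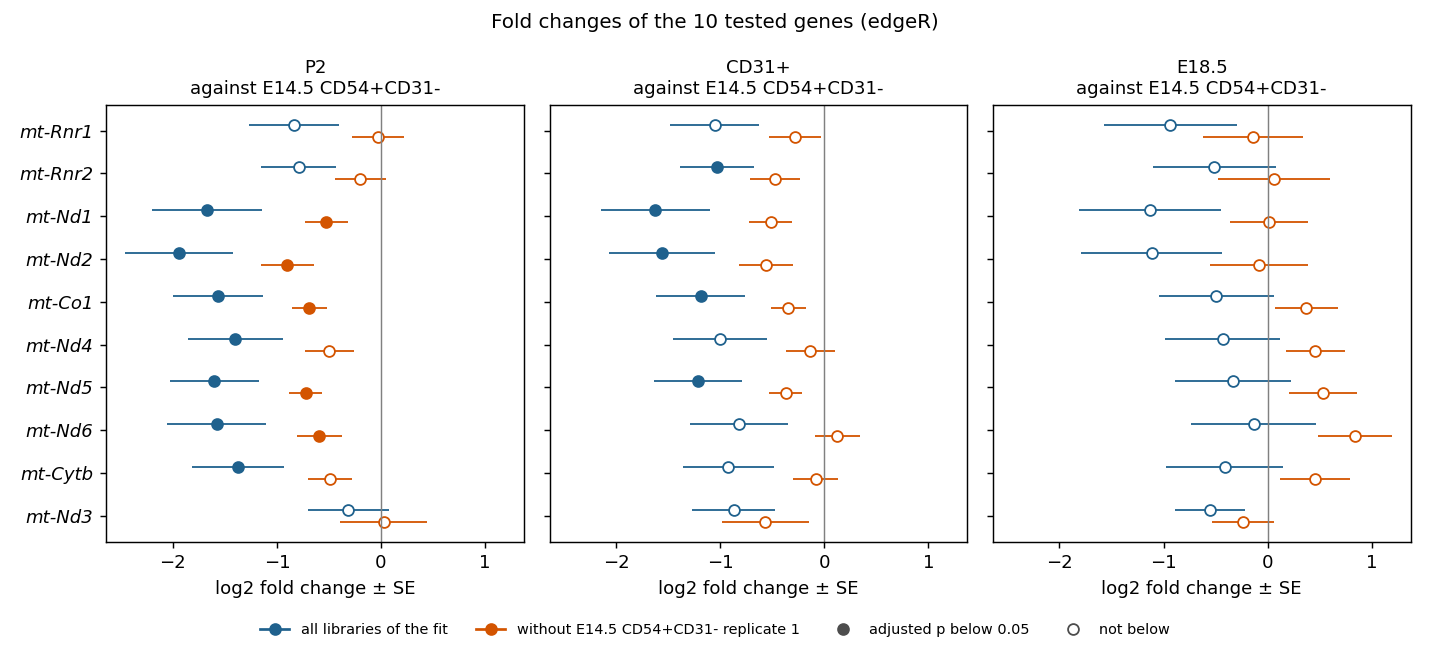
Log2 fold changes with standard errors of the 10 tested genes in the 3 comparisons against E14.5 CD54+CD31- cells, with all libraries of the fit (blue) and without replicate 1 of E14.5 CD54+CD31- cells (orange). Filled points have an adjusted p below 0.05. Without the library, 5 messenger RNAs stay lower in P2 cells, 0 genes in CD31+ cells pass, and at E18.5 most values move to the other side of 0.

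CD31+ cells were compared with the same E14.5 CD54+CD31- libraries, which both comparisons share. *mt-Nd1*, *mt-Nd2*, *mt-Co1*, *mt-Nd5*, and *mt-Rnr2* were lower in CD31+ cells, 5 of 10 genes, where 34% of all genes tested were lower, 31.7% higher, and 65.6% differed in either direction. *mt-Nd1* had 626, 556, and 869 CPM in CD31+ cells against 4342, 891, and 1029, and fell by 1.62 on the log2 scale (SE 0.53, adjusted p = 0.0197). *mt-Rnr2* had 21742, 21216, and 36173 CPM against 88254, 34589.6, and 37477, and fell by 1.03 (SE 0.36, adjusted p = 0.0272), with overlap between the populations. Blocking on replicate number added *mt-Rnr1* (log2 -0.88, adjusted p = 0.0483, against -1.05 and 0.0522 without the block).

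These calls rested on single libraries. Without replicate 1 of the CD54+CD31- cells 0 of the 10 genes passed edgeR's test (2 at an unadjusted p below 0.05), with log2 values from -0.57 (*mt-Nd3*) to 0.13 (*mt-Nd6*). Without replicate 1 or replicate 2 of the CD31+ cells 1 and 0 genes passed, the 1 being *mt-Nd3*. DESeq2 called 2 genes, *mt-Nd1* and *mt-Nd2*, and scaling by total counts called 0.

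P2 and CD31+ cells did not differ in any of the 10 genes at an adjusted p below 0.05 by edgeR's test, where 73.7% of all genes tested did (34.3% higher and 39.4% lower in P2 cells). None had an unadjusted p below 0.05, and DESeq2 also called 0. The log2 values, P2 over CD31+, ran from -0.76 (*mt-Nd6*, SE 0.47, adjusted p = 0.168) to 0.56 (*mt-Nd3*, SE 0.39, adjusted p = 0.222), and *mt-Rnr1* and *mt-Rnr2* had 0.22 (SE 0.43) and 0.24 (SE 0.35).

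*mt-Nd6* is the gene of this comparison that turned on which libraries shared the estimate of the spread. It had 160.4, 122, and 153.5 CPM in P2 cells and 252, 176, and 301 in CD31+ cells, without overlap. With only these 6 libraries in the fit the log2 value was -0.73 (SE 0.21, adjusted p = 0.0155), and with replicate 1 of the CD54+CD31- cells left out it was -0.72 (SE 0.19, adjusted p = 0.00843). The log2 value of *mt-Nd6* was near -0.7 in each of these fits, and the standard error was 0.47 with all 9 libraries. *mt-Nd3* was called in the other direction, higher in P2 cells, without replicate 1 of the CD31+ cells (log2 1.01, adjusted p = 0.0350).

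E18.5 and E14.5 CD54+CD31- cells did not differ in any of the 10 genes at an adjusted p below 0.05, where 69.4% of all 15863 genes tested did (35.9% higher and 33.5% lower at E18.5). None had an unadjusted p below 0.05, and DESeq2 called 0. All 10 log2 values, E18.5 over E14.5, were below 0, from -1.13 (*mt-Nd1*, SE 0.68, adjusted p = 0.180) to -0.14 (*mt-Nd6*, SE 0.60). Without replicate 1 of the E14.5 cells 3 of the 10 were below 0 and *mt-Nd6* had 0.84 (SE 0.35, adjusted p = 0.0850), so this comparison gave no direction that held. Within the E18.5 libraries, messenger RNA summed to 3839 CPM in replicate 1, the library low in hepatoblast markers, and to 7432 and 6983 in replicates 2 and 3. The part of the other organ's cells in these values was not tested.

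Over all 4 populations, *mt-Nd1*, *mt-Nd2*, *mt-Co1*, *mt-Nd5*, and *mt-Nd6* differed by edgeR's test (5 of 10 genes, adjusted p from 0.0183 to 0.0488), where 92% of all 16643 genes tested differed. A fit blocked on replicate left 2 of them, *mt-Co1* and *mt-Nd5*. Without replicate 1 of the E14.5 CD54+CD31- cells *mt-Co1*, *mt-Nd5*, and *mt-Nd6* passed edgeR's test, at adjusted p of 0.0110, 0.00471, and 0.00841. In that fit 3 of 10 mitochondrial genes differed, against 15548 of all 17131 genes tested. *mt-Co1*, *mt-Nd5*, and *mt-Nd6* thus differed with and without that library.

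The make-up of the messenger RNA counts differed between populations. The shares are of counts that came nearly all from 7 of the 13 genes, and copied stretches of *mt-Co1* and *mt-Nd4* may bear on them. *mt-Co1* took the largest share in every library, 28.6% to 35.5%, and the 4 populations overlapped. *mt-Nd1*, the gene next to the ribosomal RNAs on chrM, took 19.5%, 18.5%, and 19.4% in P2 libraries and 21.7%, 17.7%, and 17.7% in E14.5 CD54+CD31- libraries. It took 14.9%, 15.3%, and 16.1% in CD31+ libraries and 12.8%, 14.5%, and 14.4% in E18.5 libraries, lower than in every library of the first pair of populations.

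The other shares set single populations apart. *mt-Nd5* took 19.1%, 18.5%, and 19.5% in E18.5 libraries, above the 14.5% to 17.7% of the E14.5 libraries. *mt-Cytb* took 14.4%, 15.2%, and 15.9% in E14.5 CD54+CD31- libraries, below the 16.1% to 19.4% of all others. *mt-Nd2* took 11.2%, 10.2%, and 10.2% there, above the others, whose highest was 10.1%. These are descriptions over 3 libraries a population, and they were not tested.

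*mt-Nd6* took 3.89%, 3.90%, and 4.79% in P2 libraries and 4.18%, 4.0%, and 4.08% in E14.5 CD54+CD31- libraries. It took 6.01%, 4.84%, and 5.58% in CD31+ libraries and 5.55%, 6.24%, and 5.21% in E18.5 libraries, above the first pair of populations in every library. *mt-Nd1* and *mt-Nd6* thus split the populations into the same pairs in opposite directions. Both are shares of the same total and so are not independent. For *mt-Nd6* the margin was small, with 4.84% in a CD31+ library against 4.79% in a P2 library.

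**Figure D5:**
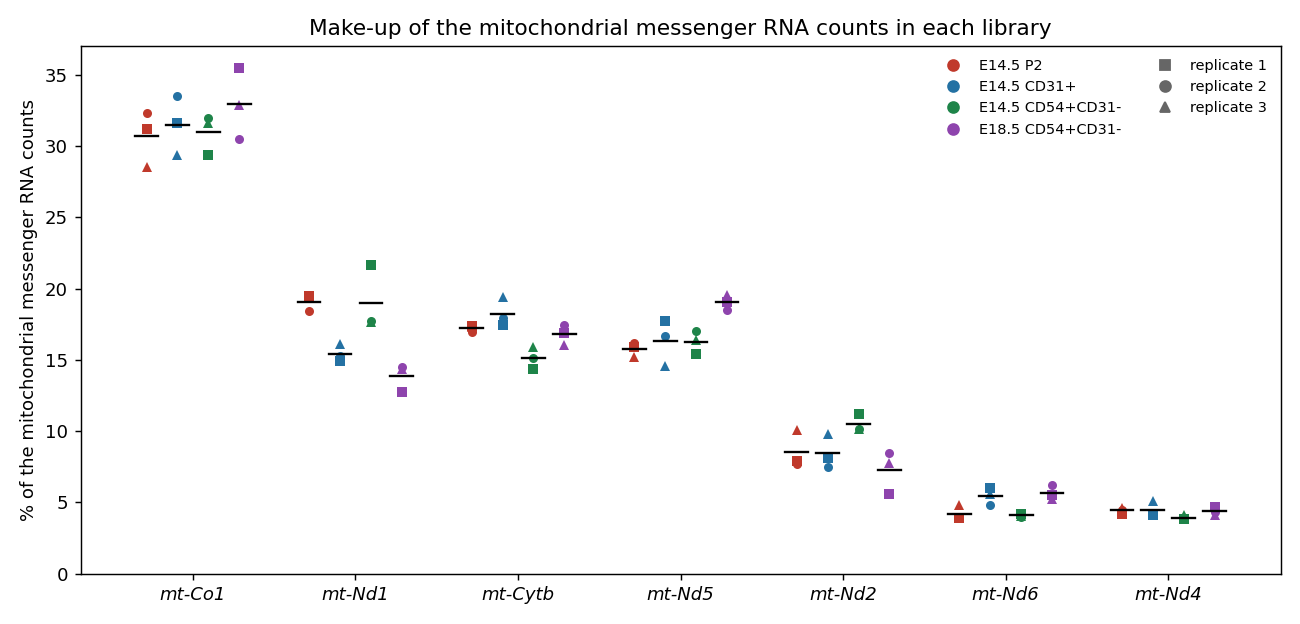
Share of the mitochondrial messenger RNA counts held by each of the 7 genes with over 1000 counts (vertical axis, percent), by library, with black lines at the means of 3 libraries. *mt-Nd1* is lower and *mt-Nd6* higher in CD31+ (blue) and E18.5 (purple) libraries than in the other 2 populations, and *mt-Nd5* is highest at E18.5.

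Nuclear genes that maintain, transcribe, process, and translate mitochondrial RNA were mostly higher in P2 cells than in either other E14.5 population. The mitochondrial messenger RNAs were lower in P2 than in E14.5 CD54+CD31- cells, and gave 0 calls against CD31+ cells. Of the 157 tested genes of 4 lists, 97 were higher and 9 lower in P2 than in E14.5 CD54+CD31- cells. Of all genes tested there, 33.8% were higher and 36.1% lower. Against CD31+ cells, 144 of the 157 were higher and 3 lower in P2 cells, where 34.3% of all genes tested were higher and 39.4% lower. By list against E14.5 CD54+CD31- cells, 13 of 24 genes of mitochondrial DNA transcription and replication were higher, 20 of 28 of RNA processing and stability, 22 of 31 transfer RNA synthetases and translation factors, and 42 of 74 mitochondrial ribosomal proteins, with median log2 values of 0.34, 0.79, 0.47, and 0.33 against -0.01 over all genes tested. Without replicate 1 of the CD54+CD31- cells 82 of the 157 were higher and 10 lower, where 4991 of 15909 genes tested were higher and 5323 lower. The difference was thus present without that library. Scaled by the authors' factors instead, 62 were higher and 22 lower, where 4008 of 15461 genes tested were higher and 6495 lower.

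The RNA processing genes *Mrm1*, which methylates mitochondrial ribosomal RNA, and *1110008L16Rik* were higher in P2 than in E14.5 CD54+CD31- cells by 1.74 and 1.5 on the log2 scale, and the synthetase gene *Mars2* by 1.5. *Mrpl36* was higher by 1.48, whereas *Mrpl50* had a log2 value of -1.34 (42.3 ± 2.09 against 106 ± 9.83 CPM, SD, n = 3). The coactivator genes *Ppargc1a* and *Ppargc1b* moved apart, with *Ppargc1a* at 0.707 ± 0.163 CPM in P2 cells against 56.7 ± 3.05 and *Ppargc1b* at 36.4 ± 2.43 against 5.97 ± 0.848. Against CD31+ cells the genes with the largest differences without overlap included *Mrps22* (2.21), *Twnk*, the mitochondrial DNA helicase (2.10), *Yars2* (2.08), *Mrpl36* (2.05), *Tbrg4* (1.86), *Tufm*, the mitochondrial elongation factor (1.84), *Mrm1* (1.84), and *Mterf1a* (1.75). All of these passed edgeR's test, with an adjusted p of at most 0.00633.

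CD31+ cells had lower levels than E14.5 CD54+CD31- cells for 126 of the 157 genes and higher levels for 7, where 34% of all genes tested were lower and 31.7% higher. The median log2 value was -0.69 against -0.03 over all genes tested. Without replicate 1 of the CD54+CD31- cells 127 were lower and 6 higher, where 5191 of 15909 genes tested were lower and 4628 higher. Scaling by total counts left 60 lower, where 3072 of 15461 genes tested were lower and 7651 higher. *Lrpprc*, which stabilizes mitochondrial messenger RNA, had 118 ± 7.31 CPM in CD31+ cells against 465 ± 8.98 (log2 -1.99). *Mrpl50* (-2.05), *Mrps22* (-1.85), *Ears2* (-1.76), *Tufm* (-1.66), and *Nsun4* (-1.53) were lower and *Ppargc1a* (-4.86) and *Ppargc1b* (3.28) again moved apart. At E18.5, 133 of the 157 genes were lower than at E14.5 and 2 were higher, where 33.5% of all genes tested were lower and 35.9% higher. The median log2 value was -1.29 against 0.03 over all genes tested, and 72 of 74 mitochondrial ribosomal proteins were lower. Leaving out replicate 1 of the E14.5 cells gave 132 lower and 2 higher, where 5035 of 16328 genes tested were lower and 5626 higher. The same E18.5 libraries held lung epithelium marker sums of 9689 to 21543 CPM and mesenchymal marker sums of 3989 to 4413, against at most 249.8 and 244 in the E14.5 libraries, and the part of those cells in this difference was not tested. *Mrps22* (-2.71), *Mrpl12* (-2.62), *Yars2* (-2.16), *Tsfm* (-2.13), *Trmt10c* (-2.12), *Tbrg4* (-2.05), *Tefm* (-1.89), and *Lonp1* (-1.86) had the largest differences of their lists, while the mitochondrial genes themselves gave 0 calls.

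Set side by side, P2 cells had the highest summed level of the mitochondrial ribosomal protein genes, 4142 to 4456 CPM in a library, and E18.5 cells the lowest, 942 to 1049. The mitochondrial messenger RNA sum was 3113 to 4119.9 CPM in the P2 libraries and 3839 to 7432 in the E18.5 libraries. The P2 and E18.5 libraries thus did not overlap in the nuclear sum. They overlapped in the mitochondrial sum on this scale but not, as given above, as shares of counts.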

How the data were processed

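The 12 libraries were made with the SMARTer Stranded Total RNA-Seq Pico Input kit and sequenced from single ends. According to the submitters' processing notes, reads were trimmed with cutadapt 1.11, aligned to GRCm38 (mm10) with STAR 2.5.0a, and counted with featureCounts 1.4.6-p3, followed by DESeq2 in R 3.5.1. The strand setting of the counting and its treatment of reads with several alignments are not given in the sources used here. The authors deposited raw read counts per gene, and a second column, treated here as a score, in which the authors multiplied each count by 1 factor per library; it served only as an alternative scaling.

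Raw counts were tested with edgeR 4.0.16 (R 4.3.3, limma 3.58.1): TMM scaling, filterByExpr, the quasi-likelihood test, and Benjamini-Hochberg adjustment over all genes tested, with adjusted p below 0.05 as the threshold. The 3 E14.5 comparisons shared a fit of 9 libraries, E18.5 against E14.5 used 6, and the test of any difference used 12. DESeq2 1.42.0 was an alternative. P-values measure the spread between libraries. Total counts of 40714017 to 64368883 set the precision, and floors cover counting error only. Genes were placed with GENCODE vM21, and copies were found with BLAST 2.17.0 among annotated transcripts. The procedure was checked on simulated counts.

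All genes named mt- were described, and from each list of nuclear genes, in each comparison, the 2 with the largest log2 fold change that passed the test without overlap between libraries. A gene that this rule selects is not reported here. The members and lists were chosen with earlier results of these data known. Deviations from the group means correlated between same-numbered CD31+ and E14.5 CD54+CD31- libraries (r across genes 0.334, 0.260, and 0.122). This is a hint from the data that these numbers mark pairs. The main tests used population only, and a replicate block was run as an alternative. Leaving out libraries, other scalings, filters, and a replicate block were tried. Pathway list counts under these alternatives were added after seeing the data.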

Additional observations from a re-analysis of the deposited data

How the results depend on the processing

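P2 against E14.5 CD54+CD31- gave 5 to 9 calls, all lower, under the alternatives run, against 7; 5 to 7 of them were messenger RNAs and up to 2 ribosomal RNAs. P2 against CD31+ gave 1 call in place of 0 with only the 6 libraries compared (*mt-Nd6*, lower), and 0 to 1 when a library was left out (*mt-Nd6*, lower, or *mt-Nd3*, higher). CD31+ against E14.5 CD54+CD31- gave 0 calls in place of 5 with total counts, 2 with DESeq2, 8 without a low count filter, and 0 to 9 when a library was left out. E18.5 against E14.5 gave 1 call in place of 0 with all 12 libraries in one fit (*mt-Rnr1*, log2 -1.10). Any difference gave 1 call in place of 5 with total counts, and 3 to 8 when a library was left out. The causes were not tested.

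With the replicate block, any difference gave 2 calls in place of 5, CD31+ against E14.5 CD54+CD31- gave 6, and *mt-Nd6* at E18.5 had a log2 value of 0.20. The block changed no other call of a mitochondrial gene. For same-numbered libraries of P2 and E14.5 CD54+CD31- cells, r was 0.067, -0.020, and 0.084. It was 0.015, 0.077, and 0.336 for P2 with CD31+, and 0.069, 0.017, and 0.046 for E18.5 with E14.5. These values do not settle whether same-numbered libraries are pairs in these comparisons.

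Log2 values that changed sign were not called with all libraries in the fit. *mt-Nd3* in P2 against E14.5 CD54+CD31- was 0.07 with total counts and -0.47 to 0.03 when a library was left out. In P2 against CD31+, the authors' factors gave -0.17 for *mt-Rnr1* and -0.14 for *mt-Rnr2*, and *mt-Nd1* ran from -0.13 to 0.22 when a library was left out. *mt-Nd6* in CD31+ against E14.5 CD54+CD31- ran from -1.24, which was called, to 0.13. At E18.5, total counts gave 0.02 for *mt-Nd4*, 0.12 for *mt-Nd5*, 0.33 for *mt-Nd6*, and 0.04 for *mt-Cytb*, and the authors' factors gave 0.08 for *mt-Nd6*. Leaving out a library there gave -0.77 to 0.06 for *mt-Rnr2*, -1.51 to 0.01 for *mt-Nd1*, -0.82 to 0.37 for *mt-Co1*, -0.78 to 0.46 for *mt-Nd4*, -0.66 to 0.53 for *mt-Nd5*, -0.49 to 0.84 for *mt-Nd6*, and -0.76 to 0.45 for *mt-Cytb*.

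Without nuclear genes above 1% of counts in the total, messenger RNA of P2 cells was 0.424%, ribosomal RNA of P2 cells 6.55%, and that of E18.5 cells 7.27%. Of the nuclear lists, 62 genes in place of 97 were higher in P2 than in E14.5 CD54+CD31- cells with the authors' factors, and 60 in place of 126 were lower in CD31+ cells with total counts. The authors' factors and total counts moved the median log2 value of all genes to -0.27 and 0.36 in P2 against E14.5 CD54+CD31-, -0.50 and -0.26 in P2 against CD31+, 0.08 and 0.46 in CD31+ against E14.5 CD54+CD31-, and 0.27 and 0.45 at E18.5. Higher genes then made up 38.2% and 59.9% of the calls in place of 48.3%, 33.9% and 42.3% in place of 46.6%, 53.4% and 71.4% in place of 48.3%, and 60.9% and 68.4% in place of 51.7%. Over single values, 361 of 390 kept direction and side of the threshold under these alternatives, and 280 of 330 when a library was left out.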
